A study of Mus musculus with 40 samples.

Results

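The nuclear genes for the subunits of the 5 oxidative phosphorylation complexes were followed in cultured mouse melanoma cells by QuantSeq 3′ RNA sequencing. The members were chosen by gene symbol and not by any measured value. They are the protein-coding genes named as Nduf subunits with a letter and number, the 4 Sdh genes, and the Uqcr, Cox4 to Cox8 and Atp5 genes, without pseudogenes. The rule found 84 of the 51789 genes in the count table, 35 of complex I, 4 of complex II, 8 of complex III, 20 of complex IV and 17 of complex V, which is ATP synthase. Ndufa4 and Ndufa4l2 were placed with complex IV, to which the Ndufa4 protein belongs despite its name. Ndufab1, Cyc1 and Cycs are outside the symbol rule and were kept in a separate list, and the genes of mitochondrial DNA were not analysed here.

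The study asked how the clock transcription factor Bmal1 acts in melanoma cells of different states, and it sequenced 40 libraries, 2 in each of 20 groups. B16-F10 is a mouse melanoma line, and its groups were a control clone (Ctrl) and 1 Bmal1 knockout clone (Bmal1 KO), neither of which carried an expression vector. YUMM2.1 and YUMM1.7 are lines from mouse melanomas driven by mutant Braf with loss of Cdkn2a among other changes, and YUMM2.1 also carries stabilized β-catenin. Both lines kept their own Bmal1 and received lentivirus with an empty vector (EV), wild-type Bmal1 (WT-Bmal1), or Bmal1 without the basic helix-loop-helix domain that binds DNA (dHLH-Bmal1). The aC3 cells are 1 Bmal1-null clone of YUMM2.1 that received the same 3 vectors. The 9 remaining groups combined each of these 3 vectors in YUMM2.1 with a control hairpin (shNC) or with hairpins #2 or #4 against Myh9, the gene of non-muscle myosin heavy chain IIA. The YUMM2.1 and aC3 cells carried a Bmal1 promoter-luciferase reporter, and the vector groups were sorted pools. The study calls most of these replicates biological without saying how they were kept apart, and the tests measure the spread between the 2 libraries of a group.

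Oxidative phosphorylation makes ATP in the inner mitochondrial membrane. Complexes I and II take electrons from NADH and succinate, complex III passes them to cytochrome c, complex IV gives them to oxygen, and complex V uses the proton gradient that results to make ATP. Most subunits are encoded in the nucleus, and the transcription factors NRF1, GABPA, YY1 and the ERR family with the coactivators PGC-1α and PGC-1β are known for driving these genes together. Melanomas differ in their use of the pathway, and PGC-1α lies downstream of the melanocyte factor MITF.

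Promoters of the members were searched for chosen motifs, each of which was found in a minority of them. The shares over all genes given beside these were not matched for base composition or expression. RefSeq entries for GRCm38.p6 were found for 68 of the 84 members, and the 250 bases upstream of each start were searched on both strands. The NRF1 motif was in 13 of the 68, or 19.1%, against 4.23% of the 27025 genes with an entry. The ETS motif CCGGAAG, which GABPA binds, was in 12 (17.6% against 7.83%), the YY1 motif AANATGGCG in 3 (4.41% against 1.29%), and the cyclic AMP motif TGACGTCA in 4 (5.88% against 1.77%). The E-box CACGTG, the core of the site that Bmal1 with Clock binds, was in 6 (8.82% against 6.86%), namely Atp5f1, Atp5g1, Atp5g3, Atp5l, Ndufa7 and Ndufv1. The ERR motif TCAAGGTCA was in Atp5g3 alone (1.47% against 0.422%), and the TATA motif TATAAA was in 6 (8.82% against 14.3%). These motifs were searched as exact letters and may overlap one another, and a match describes the letters and not a bound site. Among the members with no entry were Atp5a1, Atp5mpl, Cox4i1, Cox4i2, Cox6a2, Cox6c, Cox8c, Ndufa2, Ndufa4l2, Ndufb9, Ndufs1, Sdhc, Uqcrb, Uqcrc2 and Uqcrq. The sequences of 4 members follow, all read 5′ to 3′ on the minus strand of GRCm38.p6, with motif matches on either strand in capitals. Cox6a1 (chr5:115348959-115349208) and Sdhd (chr9:50603850-50604099) are shown since both hold NRF1 and ETS motifs although their levels below are among the steadiest and the most variable. Atp5g3 (chr2:73911327-73911576), with an E-box and an ERR motif, and Ndufv1 (chr19:4012756-4013005), with an E-box, are shown for the site that Bmal1 is known to bind.
Cox6a1: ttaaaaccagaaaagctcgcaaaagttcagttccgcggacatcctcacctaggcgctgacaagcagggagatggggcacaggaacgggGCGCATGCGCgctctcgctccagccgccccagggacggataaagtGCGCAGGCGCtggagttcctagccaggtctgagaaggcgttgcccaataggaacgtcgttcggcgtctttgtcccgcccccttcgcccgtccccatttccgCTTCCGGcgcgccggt
Sdhd: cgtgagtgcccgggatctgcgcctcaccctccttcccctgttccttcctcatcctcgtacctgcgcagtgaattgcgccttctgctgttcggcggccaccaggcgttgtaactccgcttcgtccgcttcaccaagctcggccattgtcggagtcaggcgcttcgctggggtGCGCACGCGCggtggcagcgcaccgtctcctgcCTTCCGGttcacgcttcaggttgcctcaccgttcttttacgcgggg
Atp5g3: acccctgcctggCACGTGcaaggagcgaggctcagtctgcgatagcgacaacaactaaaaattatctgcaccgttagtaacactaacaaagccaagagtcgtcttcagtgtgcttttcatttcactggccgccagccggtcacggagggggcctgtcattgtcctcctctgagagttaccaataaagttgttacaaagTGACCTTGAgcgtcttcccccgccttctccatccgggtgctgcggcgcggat
Ndufv1: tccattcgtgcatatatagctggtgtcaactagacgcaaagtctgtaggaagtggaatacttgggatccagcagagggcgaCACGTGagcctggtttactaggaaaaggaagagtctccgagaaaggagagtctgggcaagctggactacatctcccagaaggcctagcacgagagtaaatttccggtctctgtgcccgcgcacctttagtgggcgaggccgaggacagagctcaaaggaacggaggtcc

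Library totals ran from 3643332 to 22970049 counts with a median of 10021164.5. Levels below are CPM, that is counts scaled to a common library size, with TMM factors over the 40 libraries. QuantSeq counts 1 tag per transcript at its 3′ end, and levels of different genes were therefore compared without division by length. Counts of Arntl, the gene of Bmal1, did not separate B16-F10 Bmal1 KO (13.3 and 11.5 CPM) from Ctrl (15.2 and 10.7 CPM) (-0.07 on the log2 scale, edgeR adjusted p = 0.923). Against EV, Arntl was higher with dHLH-Bmal1 in YUMM2.1 (1.54, edgeR adjusted p = 0.00952), in YUMM1.7 (1.05, adjusted p = 0.0136) and in shNC cells (0.60, adjusted p = 0.016), and not called in aC3 (0.27). With WT-Bmal1 it was lower in aC3 (-0.83, adjusted p = 0.00356) and not called in YUMM2.1 (0.10), YUMM1.7 (0.68) or shNC cells (0.27). The counts of Arntl thus separated neither the KO nor the WT-Bmal1 groups in the direction of their labels, and where the 3′ tags lie relative to the edits and the constructs was not tested, so the groups are named by their labels. Myh9 was lower with both hairpins, by -1.52 (#2) and -0.52 (#4) on the log2 scale in EV cells, -2.04 and -0.93 in WT-Bmal1 cells, and -1.69 and -0.42 in dHLH-Bmal1 cells (edgeR adjusted p at most 0.00715). Of the melanocytic markers, Mitf had a median of 17.8 CPM and Sox10 of 141 CPM, but Sox10 was only 0.0908 to 1.51 CPM in the 6 YUMM1.7 libraries. Dct had 0 counts in 33 libraries and Tyrp1 and Mlana in 36, with their counts mainly in B16-F10. Among markers of other cells, Epcam had 0 counts in all 40 libraries, Krt5 in 39, Krt14 in 34 and Ptprc in 32.

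The 84 members together took 12090 to 17217 CPM in single libraries, or 1.21% to 1.72% of the counts. The lowest library was of YUMM1.7 dHLH-Bmal1 and the highest of B16-F10 Ctrl. Between the lowest and highest of the 40 libraries, the sum varied 1.39-fold for complex I, 1.58-fold for complex III, 1.46-fold for complex IV and 1.62-fold for complex V. Complex II varied most, 2.73-fold, with 328 CPM in 1 library of YUMM2.1 EV shMyh9#4 and 897 CPM in 1 library of B16-F10 Bmal1 KO. The 2 Bmal1 KO libraries differed, with Sdhb of complex II at 360 and 681 CPM. In bulk RNA, fewer cells that make a transcript and less RNA per cell cannot be told apart.

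Single members varied far more than these sums. Atp5e, the ε subunit of ATP synthase (137 to 215 CPM, range 0.52), Cox6a1 of complex IV (204 to 343 CPM, 0.53), Atp5c1, the γ subunit (168 to 274 CPM, 0.54), and Ndufb11 of complex I (101 to 155 CPM, 0.55) had some of the narrowest ranges between log2 group means. For these 4 the largest gap between the replicates of 1 group was 0.36 to 0.45 on the log2 scale, close to the range between groups. At the other end, Cox7c, a small structural subunit of complex IV (ENSMUSG00000017778, chr13:86044816-86046904, minus strand), ran from 3.82 CPM in YUMM2.1 dHLH-Bmal1 shMyh9#4 replicate 2 to 262 CPM in B16-F10 Bmal1 KO replicate 1. Its range between log2 group means was 5.34, but the 2 replicates of B16-F10 Bmal1 KO, at 262 and 12.5 CPM, differed by 4.33 on the same scale.

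**Figure D1:**
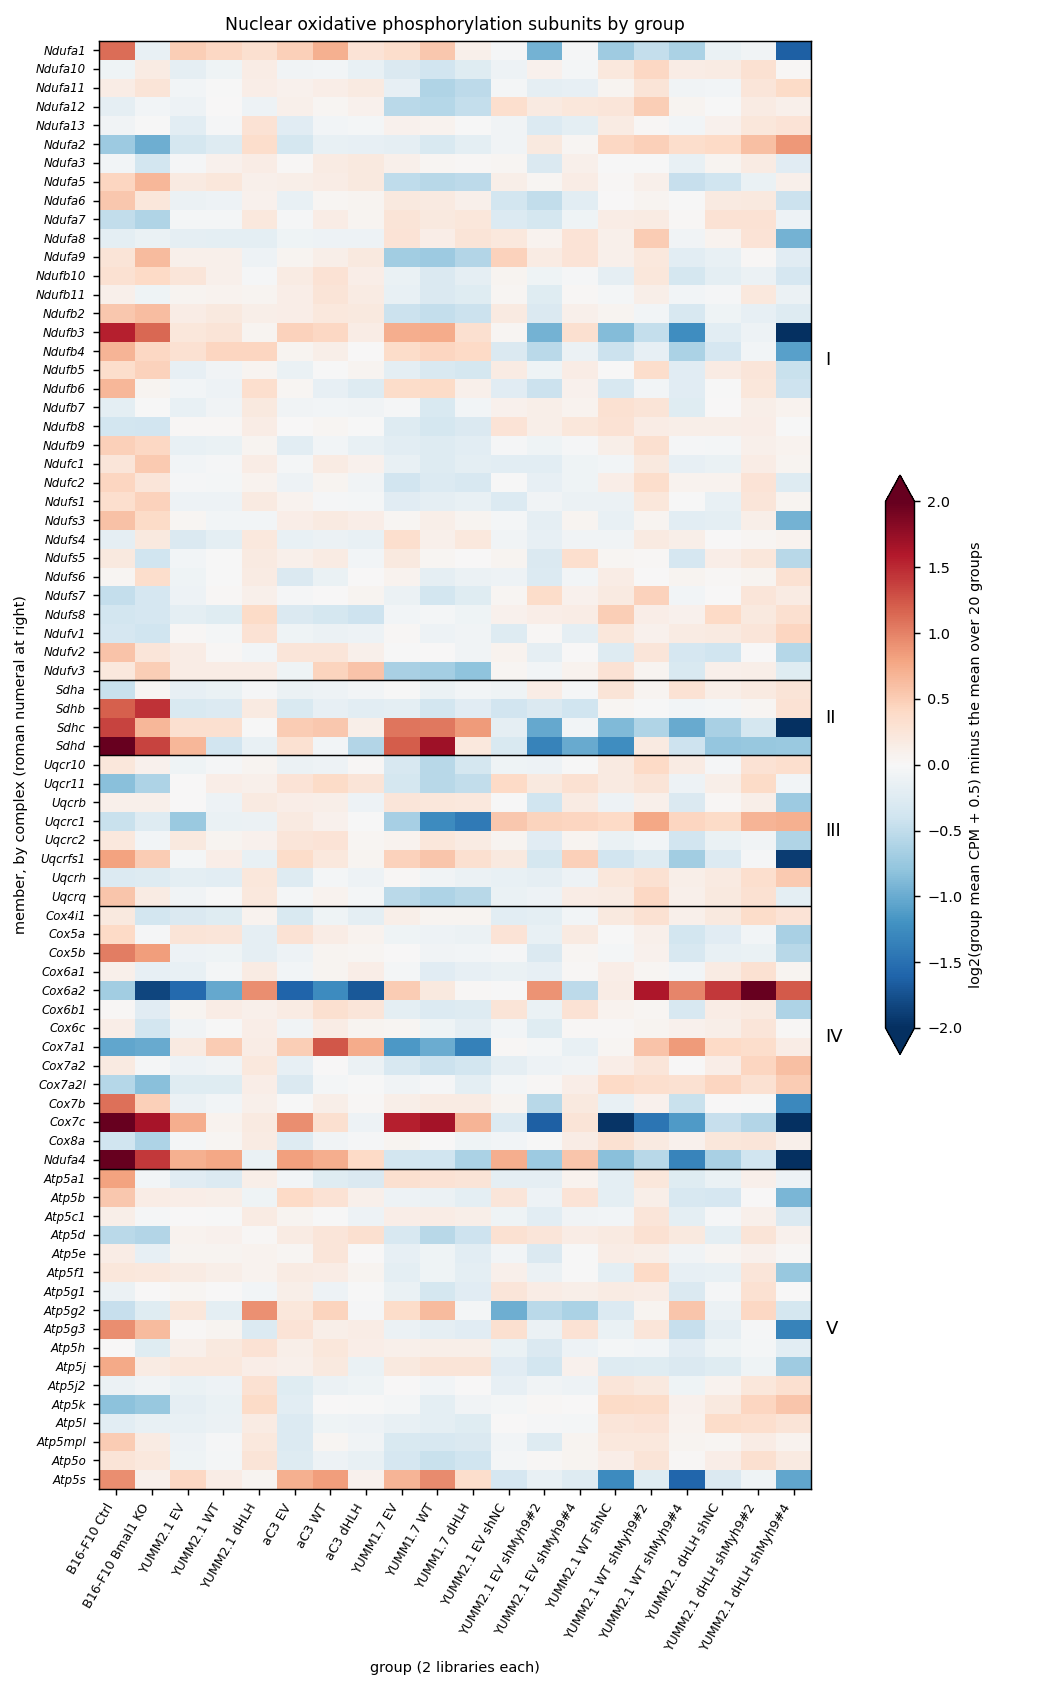
Levels of the members in the 20 groups, as log2(group mean CPM + 0.5) minus its mean over the 20 groups (colour, cut at 2.0 either way), with 77 members as rows by complex and groups as columns (n = 2 libraries each). Most rows are near 0, and the strong colours are in Cox7c, Ndufa4, Ndufb3, Sdhc, Sdhd and Uqcrfs1, lowest in YUMM2.1 dHLH-Bmal1 shMyh9#4 for 5 of these 6, and in the rare Cox6a2 and Cox7a1.

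The members with the next largest ranges were Ndufa4 (4.25 between log2 group means, 5.04 to 135 CPM), Ndufb3 (4.15, 7.99 to 184 CPM), Cox6a2 (4.13), Sdhd (3.42, 0.680 to 18.1 CPM), Sdhc (3.37, 8.34 to 108 CPM), Ndufa1 (2.75, 9.90 to 81.5 CPM) and Uqcrfs1 (2.70, 13.2 to 114 CPM). Ndufb3 and Ndufa1 are accessory subunits in the membrane arm of complex I, Sdhc and Sdhd are the membrane anchors of succinate dehydrogenase, and Uqcrfs1 is the Rieske iron-sulfur protein of complex III. Cox7a1 (2.59) and Atp5s (2.54) completed the 10 and were at most 3.23 and 5.16 CPM. B16-F10 Ctrl had the highest group mean of Cox7c, Ndufa4, Ndufb3, Sdhc, Sdhd, Ndufa1 and Uqcrfs1, and YUMM2.1 dHLH-Bmal1 shMyh9#4 had the lowest of these except Sdhd. For Cox7c the next groups below B16-F10 Ctrl (241 ± 27.8 CPM, SD, n = 2) were YUMM1.7 WT-Bmal1 (139 ± 23.9), B16-F10 Bmal1 KO (137 ± 176) and YUMM1.7 EV (128 ± 4.33), and the order among these 3 lies within their spread.

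Over the 40 libraries the log2 level of Cox7c moved most like that of Sdhc (Pearson r = 0.96), Ndufb3 (0.93), Ndufa1 (0.90), Atp5j (0.90) and Uqcrfs1 (0.89), and most opposite to Ndufa2 and Sdha (both -0.80). These correlations describe libraries that share depth, line and replicate differences. Sdhc, for example, had 108 and 106 CPM in B16-F10 Ctrl, 104 and 30.0 in Bmal1 KO, and 11.6 and 8.34 in YUMM2.1 dHLH-Bmal1 shMyh9#4 cells. In the same libraries Ndufb3 had 144 and 170, then 184 and 51.1, then 8.74 and 7.99 CPM. Both genes were lower in Bmal1 KO replicate 2 than in its partner, as Cox7c was.

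**Figure D2:**
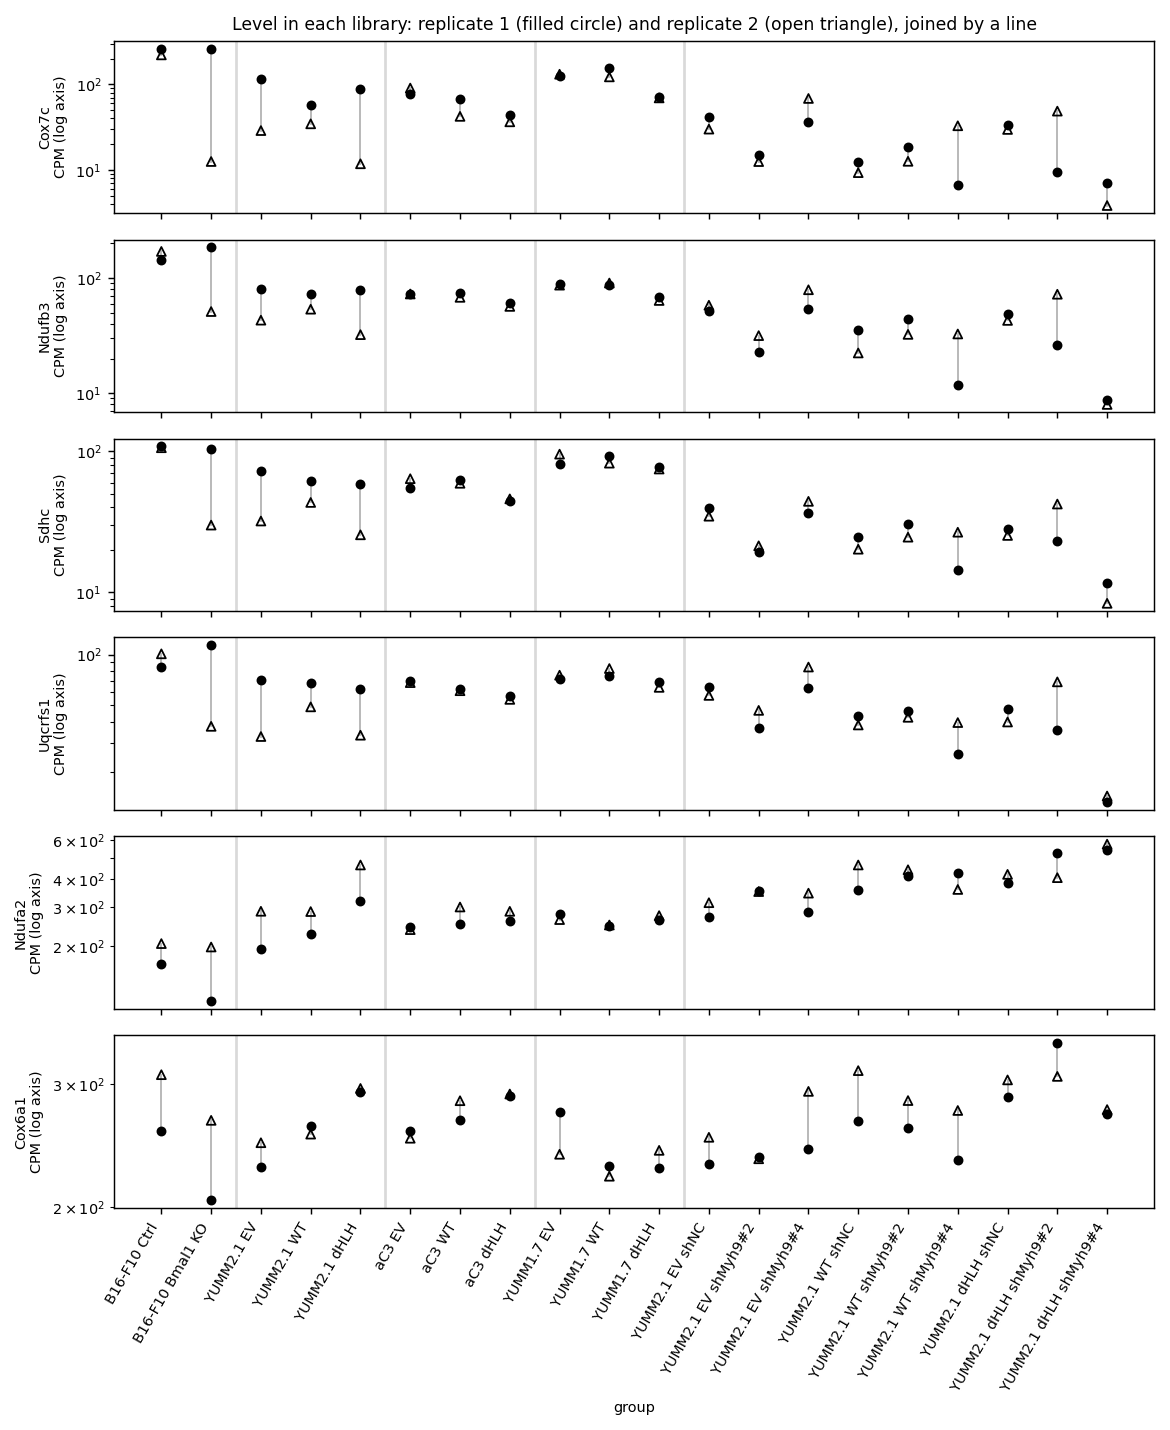
CPM (log axis) of Cox7c, Ndufb3, Sdhc, Uqcrfs1, Ndufa2 and Cox6a1 in each library, with the 20 groups along the other axis, a filled circle for replicate 1 and an open triangle for replicate 2. The first 4 move together, with wide gaps between replicates in B16-F10 Bmal1 KO, YUMM2.1 EV and YUMM2.1 dHLH-Bmal1, while Cox6a1 stays between 204 and 343 CPM.

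The base composition of the 3′ end moved with these replicate gaps. For 74 members with a mean above 10 CPM, the log2 gap between the 2 replicates was set against the GC share of the last 250 bases of the transcript. In 5 groups the SD of this gap was larger among members than among all genes. Across members, r was there 0.59 in B16-F10 Bmal1 KO, 0.62 in YUMM2.1 EV, 0.57 in YUMM2.1 dHLH-Bmal1, -0.56 in YUMM2.1 dHLH-Bmal1 shMyh9#2 and -0.48 in YUMM2.1 WT-Bmal1 shMyh9#4. Over 8370 genes above the same level r was 0.36, 0.28, 0.26, -0.17 and -0.04 in these groups. The SD of the gap was 0.84 among members against 0.59 among all genes in B16-F10 Bmal1 KO. In the other 15 groups it was not larger among members, and r across members ran from -0.37 (YUMM1.7 WT-Bmal1) to 0.49 (YUMM1.7 dHLH-Bmal1), with 0.018 in B16-F10 Ctrl and 0.033 in YUMM1.7 EV. In B16-F10 Bmal1 KO the 18 members under 40% GC, which include Cox7c, Ndufa4, Ndufb3, Ndufa1 and Uqcrfs1, had a median of -0.50 in replicate 2 against replicate 1, and the 25 members of at least 50% GC had 0.55. The summed CPM of the first set over that of the second was 1.58 in B16-F10 Bmal1 KO replicate 1, the highest of 40 libraries, and 0.396 in YUMM2.1 dHLH-Bmal1 shMyh9#4 replicate 2, the lowest. Sdhc goes against this split, with 54.0% GC. The results below were also computed with a GC correction, which removes the trend over all genes and not one seen only across members. The part of base composition in these results was not otherwise tested.

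**Figure D3:**
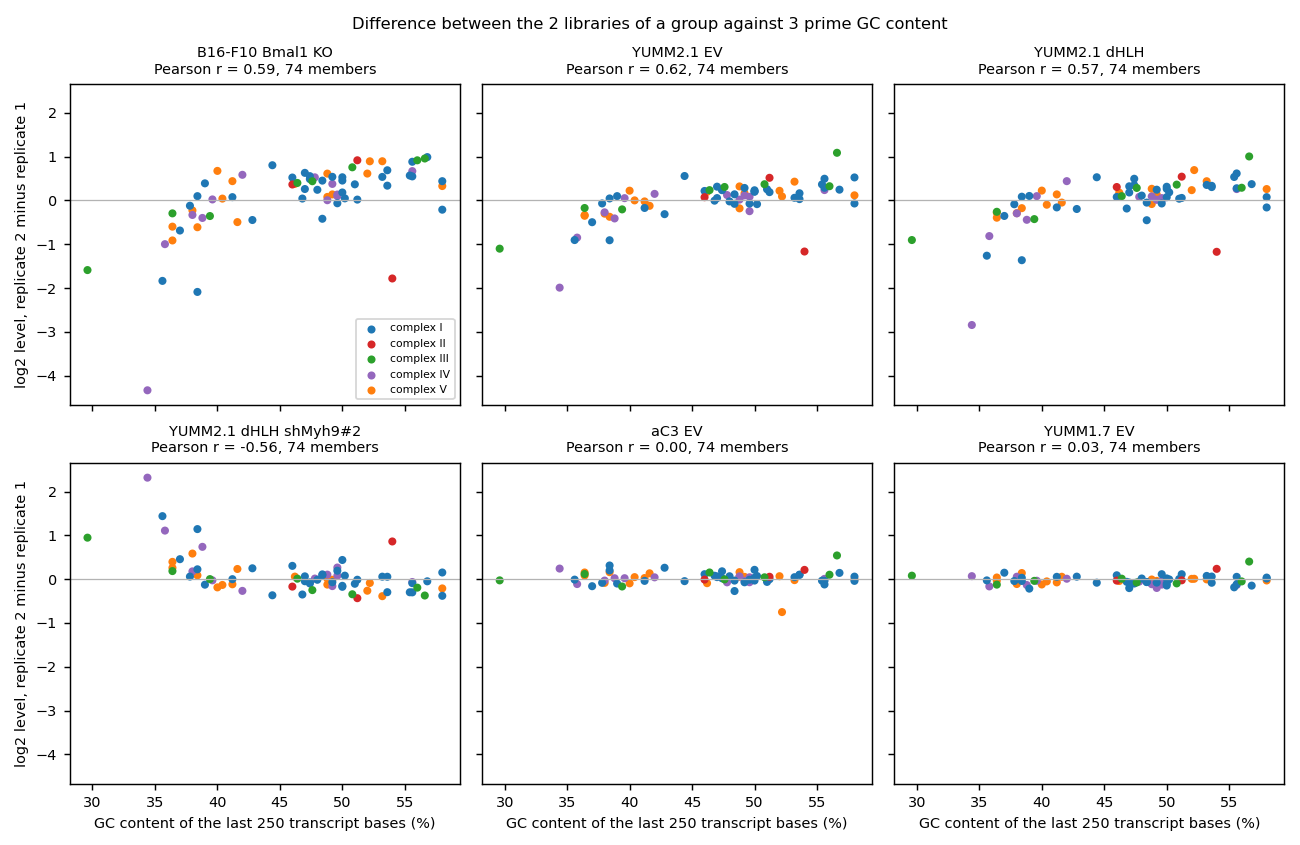
Log2 difference of replicate 2 minus replicate 1 for each of 74 members against the percent GC of the last 250 bases of its transcript, in 6 groups, 1 point per member, coloured by complex. Members of low GC lie below those of high GC in B16-F10 Bmal1 KO, YUMM2.1 EV and YUMM2.1 dHLH-Bmal1, and above them in YUMM2.1 dHLH-Bmal1 shMyh9#2.

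Near-identical genomic copies also bear on the levels, since RSEM divides reads among copies. A copy of the 3′ end was found for 22 members. For Atp5g2, a gene of the ATP synthase c subunit, 93.9% of the counts of gene and copies were assigned to 2 copies, and for Cox7c 60.3% to 4 copies, so that both levels are uncertain. With the copies added, Cox7c had 332 and 366 CPM in B16-F10 Ctrl, 380 and 44.8 in Bmal1 KO, and 24.8 and 28.0 in YUMM2.1 dHLH-Bmal1 shMyh9#4 cells. The gap within Bmal1 KO and the low level with shMyh9#4 were thus present on both ways of counting. Other genes overlap 36 of the members, 10 of them on the same strand, and the strand setting of the counting is not given in the sources used here. Among these, Cox7c overlaps Gm22574 on its own strand, Cox6a2 overlaps Itgad on the other strand, and Atp5a1 overlaps Haus1.

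Where the family has isoform pairs, the ubiquitous form was the abundant one in these cells. Cox4i1 had 164 to 361 CPM (median 277), whereas Cox4i2, the form known from lung and hypoxia, had 1 count in all 40 libraries. Cox8a had a median of 628 CPM, and Cox8b and Cox8c had 0 counts. Cox6b2, Cox7b2 and Ndufa4l2 had 12, 5 and 10 counts in all, against medians of 248 CPM for Cox6b1, 140 CPM for Cox7b and 27.7 CPM for Ndufa4. A library at 0 allows up to 3 counts, which covers counting error only. Of the 3 genes of the c subunit, Atp5g3 had a median of 862 CPM, Atp5g1 245 CPM and Atp5g2 19.8 CPM. With its copies added, Atp5g2 had from 253 CPM (B16-F10 Bmal1 KO replicate 1) to 446 CPM (YUMM2.1 dHLH-Bmal1 shMyh9#2 replicate 1). Its place among the 3 thus depends on how reads were divided among copies. Among the succinate dehydrogenase genes, Sdhb (the iron-sulfur subunit) and Sdha (the flavoprotein) had medians of 169 and 157 CPM, and the anchors Sdhc and Sdhd 42.8 and 2.50 CPM. Sdhd had 0.680 to 18.1 CPM, or 2310 counts in all.

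The heart and muscle forms Cox6a2 and Cox7a1 were rare but differed between groups. Cox6a2 (ENSMUSG00000030785, chr7:128205435-128206387, minus strand) had 789 counts in all and was at 0 counts in 4 libraries. It was 0.524 and 0.678 CPM in B16-F10 Ctrl, listed at 0 in both Bmal1 KO libraries, 0 to 0.308 CPM in the 6 aC3 libraries, and 7.83 and 8.66 CPM in YUMM2.1 dHLH-Bmal1 shMyh9#2 cells, the highest group. The ubiquitous form Cox6a1 stayed between 204 and 343 CPM. Cox7a1 was 0.0908 to 0.367 CPM in the 10 libraries of B16-F10 and YUMM1.7 and 0.359 to 3.23 CPM in the 30 libraries of YUMM2.1 and aC3, while Cox7a2 had a median of 366 CPM and Cox7a2l, a factor that joins complexes III and IV, 292 CPM.

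**Figure D4:**
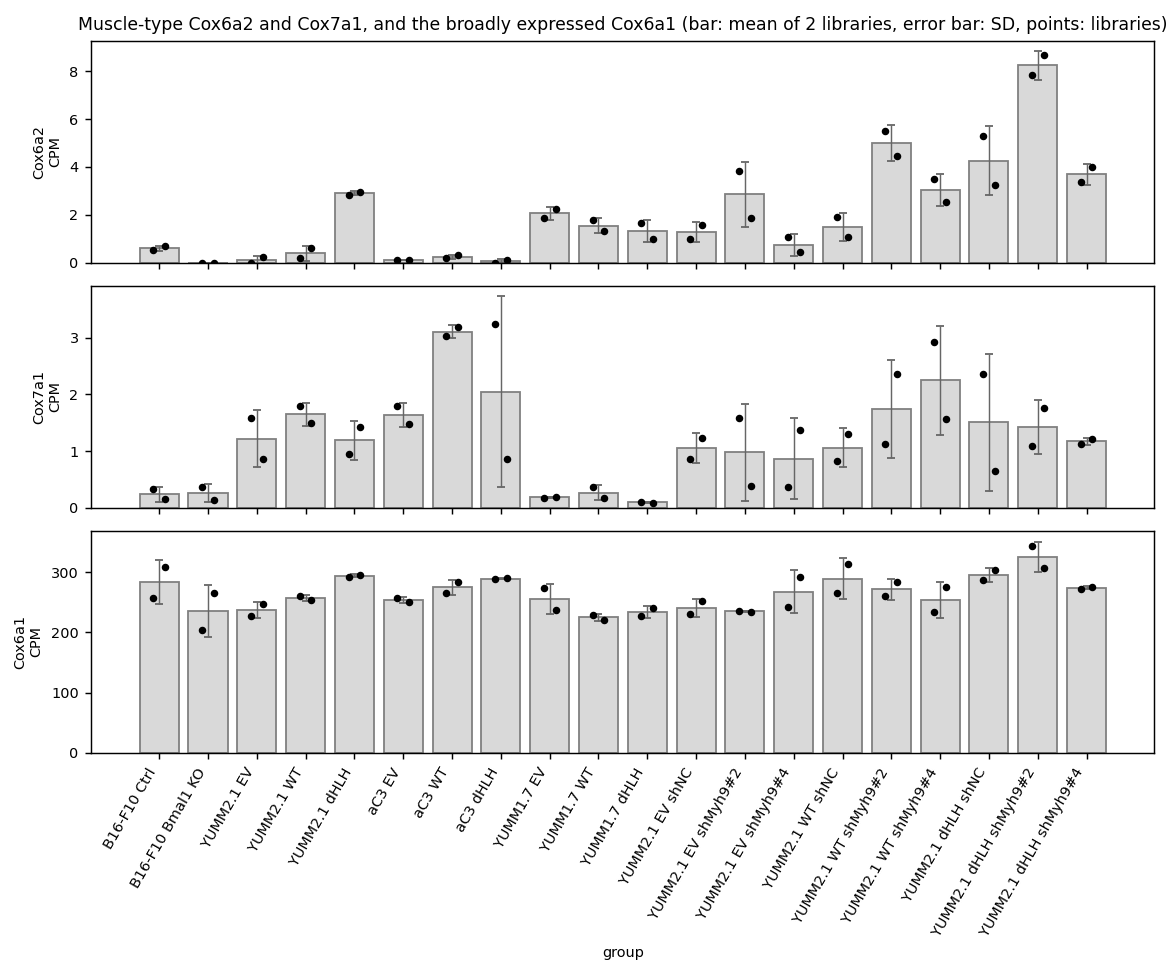
CPM of Cox6a2, Cox7a1 and Cox6a1 by group, with a point per library, bars for the mean of 2 libraries and error bars for the SD. Cox6a2 and Cox7a1 stay at or below 8.66 and 3.23 CPM, Cox6a2 is highest in YUMM2.1 dHLH-Bmal1 shMyh9#2, and Cox6a1 lies between 204 and 343 CPM throughout.

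Deletion of Bmal1 in B16-F10 was compared first, to ask which subunits differ without the factor. Of the 77 members tested with edgeR, 0 passed an adjusted p of 0.05 and 5 had an unadjusted p under 0.05, where 0.22% of 14556 genes were called higher and 0.22% lower. DESeq2's Wald test called 1, Atp5a1, the catalytic-hexamer α subunit of ATP synthase, and the edgeR fit without the filter on low counts also called 1 lower. Atp5a1 had 474 and 337 CPM in Bmal1 KO and 728 and 756 in Ctrl (log2 -0.88, standard error 0.21, edgeR adjusted p = 0.232). Both KO libraries were below both controls for Atp5a1. Cox6c had 248 and 252 CPM against 313 and 397, and Cox7b 214 and 162 against 253 and 329, so that the groups did not overlap for these complex IV genes either. Both KO libraries were below both controls for 30 members and above for 5, where 47.8% of all genes tested did not overlap. The member median was -0.16 on the log2 scale against -0.01 over all genes.

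The 2 libraries labelled B16-F10 Bmal1 KO stood apart from each other. Without replicate 1, 23 members were called higher and 22 lower (21.5% and 21.9% of all genes), and without replicate 2, 0 were called higher and 25 lower (7.23% and 7.31%). The lower calls shared by both were Atp5a1, Cox6c, Cox7b, Ndufa1 and Ndufs5, and Atp5k, Ndufb7, Ndufs8, Uqcr11 and Uqcrc1 were called in opposite directions. Uqcrc1, a core protein of complex III, had 45.7 CPM in KO replicate 1 and 89.3 in replicate 2, on either side of the controls at 71.1 and 47.6. Cox6a2 had 0 counts in KO against 25 in the controls, which is at least 4.43-fold lower against a floor of 3 counts per library, and its edgeR adjusted p was 0.232.

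In the Bmal1-null aC3 clone, the comparison with EV asked what either form of Bmal1 changes. With WT-Bmal1, 1 of 77 members was called higher and 1 lower, where 4.92% and 6.28% of 13790 genes were called, and with dHLH-Bmal1 1 was called higher and 5 lower (4.79% and 6.09%). Ndufv3, an accessory subunit of the NADH-binding arm (chr17:31520115-31531331), rose with both. It had 134 and 143 CPM in EV, 193 and 208 with WT-Bmal1 (log2 0.53, standard error 0.08, edgeR adjusted p = 0.0013), and 215 and 222 with dHLH-Bmal1 (0.64, 0.08, adjusted p = 0.000629). All 4 of these libraries were above both EV libraries. Cox7c fell with dHLH-Bmal1, from 76.4 and 90.5 CPM to 44.3 and 36.4 (log2 -1.06, standard error 0.17, adjusted p = 0.00164). With dHLH-Bmal1, Ndufa4 (-0.44, standard error 0.11, adjusted p = 0.0178), Sdhc (-0.41, 0.11, 0.0251), Uqcrfs1 (-0.33, 0.09, 0.0377) and Ndufb3 (-0.32, 0.09, 0.0425) also fell. The call of Cox7c with WT-Bmal1 (66.5 and 42.2 CPM, log2 -0.62, adjusted p = 0.0258) was lost with its copies added (-0.18, adjusted p = 0.2475), whereas its fall with dHLH-Bmal1 was -0.76 on that count (adjusted p = 0.000502). These 2 comparisons share the EV libraries.

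The calls with dHLH-Bmal1 in aC3 were fewer than 6 without either EV library and more without either dHLH-Bmal1 library. They were then mostly higher without dHLH-Bmal1 replicate 1 and mostly lower without replicate 2. The share of all genes called in these fits is not given, so the change is not read as one of the members. The 2 calls with WT-Bmal1 became 1 without either EV library or WT-Bmal1 replicate 2, with Ndufv3 higher each time. Between WT-Bmal1 and dHLH-Bmal1 directly, 0 of 77 members were called with edgeR, 9 had an unadjusted p under 0.05 and DESeq2's Wald test called 0, where 0.442% and 0.435% of genes were called. Sdhc was nearest to the threshold (log2 0.44 higher with WT-Bmal1, standard error 0.11, edgeR adjusted p = 0.0745), and members were called higher without dHLH-Bmal1 replicate 2. The 6 members with an E-box lay between -0.23 (Atp5g1) and 0.18 (Atp5l) on the log2 scale with WT-Bmal1 against EV, and none was called.

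The labels of YUMM2.1 EV replicate 2 and WT-Bmal1 replicate 1 may be exchanged. In the normalized counts published with the study, the columns of these names match the libraries the other way round, while the columns of the 4 other YUMM2.1 libraries without hairpins match their own labels. In the deposited counts, EV replicate 1 lay nearest to WT-Bmal1 replicate 1 (SD of the log2 ratio 0.23 over 8797 genes above 10 CPM) and EV replicate 2 nearest to WT-Bmal1 replicate 2 (0.25), against 0.44 between the EV libraries and 0.31 between the WT-Bmal1 libraries. Exchanged labels and a difference shared by the libraries of 1 number cannot be told apart from these counts. The deposited labels were kept, and the members called with the exchange are given beside them. The exchange left the calls at 0 for aC3 EV against YUMM2.1 EV, and gave 5 higher and 13 lower for YUMM1.7 EV against YUMM2.1 EV and 22 higher and 6 lower for B16-F10 Ctrl against YUMM2.1 EV. The shares of all genes called with the exchange are not given for these comparisons of lines.

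In YUMM2.1 as labelled, WT-Bmal1 gave 0 calls among 78 members and 0 at an unadjusted p under 0.05, with edgeR and with DESeq2, and 0% of all 14323 genes were called either way. With the exchanged labels 0 members were called, where 0.677% of genes were called higher and 0.0279% lower. With dHLH-Bmal1, edgeR called 1 member higher, Cox6a2, where 6.51% of genes were called higher and 6.72% lower, and 16 members had an unadjusted p under 0.05. Cox6a2 had 0 and 2 counts in EV and 30 and 25 with dHLH-Bmal1, a ratio of 28.0 (exact 95% interval of counting 7.40 to 237, log2 4.76, standard error 1.01, edgeR adjusted p = 0.0259). The call was lost without EV replicate 1 (3.68) and without either dHLH-Bmal1 library (4.78 and 4.72). The member median was 0.18 against -0.01 over all genes. Sox10 was 66.2 and 72.9 CPM with dHLH-Bmal1 and 501 and 484 CPM in EV, and its part in these differences was not tested. Same-numbered libraries of this line deviated together (correlations 0.13 to 0.30 for the 3 pairs of groups), so the fit with a replicate block is given beside this one. With the block, 20 members were called higher and 3 lower, where 2014 genes of 14323 (14.1%) were called higher and 1863 lower.

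The members called with the replicate block in YUMM2.1 dHLH-Bmal1 cells were spread over the complexes. Ndufa2, an accessory subunit of complex I, had 321 and 463 CPM against 195 and 287 in EV (log2 0.71 with the block, edgeR adjusted p = 0.000625). Atp5k, the e subunit of ATP synthase, had 289 and 391 against 194 and 262 (0.58), and Atp5g2 28.4 and 46.2 against 22.3 and 23.8 (0.66). Neither group overlapped the other for these 3. Uqcrc1 (0.65), Ndufs8 (0.58), Ndufa13 (0.51), Ndufs4 (0.50) and Sdhb (0.49) were also called higher. Lower were Ndufa4, with 34.8 and 19.6 CPM against 63.6 and 35.1 (log2 -0.85), Cox5a (-0.43) and Atp5g3 (-0.29). The exchanged labels gave 20 higher and 3 lower without the block, where 15.2% of genes were called higher and 13.5% lower, and 21 of these members were called both ways. With its copies added and without the block, Atp5g2 changed by 0.32 (edgeR adjusted p = 0.11) in place of 0.70. DESeq2's Wald test called 5 higher, and the share of all genes it called is not given.

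In YUMM1.7, WT-Bmal1 gave 0 calls among 77 members, where 0.138% of 13816 genes were called (0.0434% higher and 0.0941% lower), with 19 members at an unadjusted p under 0.05 and 0 by DESeq2. More were called lower without WT-Bmal1 replicate 1, and the share of all genes called in that fit is not given. With dHLH-Bmal1, 0 members were called higher and 2 lower (0.21% and 0.42% of genes). Cox7c had 71.4 and 69.4 CPM against 125 and 131 in EV (log2 -0.86, standard error 0.09, edgeR adjusted p = 0.000143). Ndufb3 had 68.9 and 63.7 CPM against 88.3 and 86.6 (-0.39, 0.07, adjusted p = 0.019). The groups did not overlap for either gene, as was the case for 41.8% of all genes. With its copies added Cox7c changed by -0.45 (adjusted p = 0.000929). Cox7c remained called when any single library was left out (-0.90 to -0.82), and Ndufb3 did not (-0.45 to -0.33).

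Among YUMM2.1 cells with the control hairpin, more members differed, and so did more genes. WT-Bmal1 shNC against EV shNC had 13 of 78 members higher and 3 lower, where 11.7% and 10.6% of 14848 genes were called. In complex IV, Cox7a2l (388 and 378 CPM against 268 and 300, log2 0.44, standard error 0.10, edgeR adjusted p = 0.00316), Cox4i1 (0.41, adjusted p = 0.0029) and Cox8a (0.36, adjusted p = 0.00761) rose. In complex I, Ndufa2 and Ndufv1, the subunit that binds NADH, rose by 0.50 each, and in complex V Atp5g2 rose by 0.73 (0.39 with its copies added) and Atp5k by 0.43. Lower were Ndufa4, with 19.8 and 13.4 CPM against 52.0 and 47.5 (log2 -1.58, standard error 0.34, adjusted p = 0.00281), Cox7c (12.4 and 9.27 against 41.8 and 29.9, -1.73, adjusted p = 0.0428) and Atp5b, the catalytic β subunit of ATP synthase (-0.44, adjusted p = 0.0364). Of the 6 members with an E-box, Ndufv1 and Ndufa7 (0.43) were among those called higher, and the other 4 were not called. The 16 calls became 3 without EV shNC replicate 1, 11 without EV shNC replicate 2 and 2 without WT-Bmal1 shNC replicate 2, and with the GC correction the member median went from 0.02 to -0.01.

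The dHLH-Bmal1 shNC cells had 12 members higher and 9 lower than the same EV shNC libraries (13.9% and 12.5% of genes). Cox6a2 had 5.28 and 3.24 CPM against 0.987 and 1.57 (log2 1.76, standard error 0.49, edgeR adjusted p = 0.0137). Atp5g2 (0.92, or 0.45 with its copies added), Ndufa6 and Ndufa7 (0.57 each), Cox7a2l (0.47) and Ndufv1 (0.45) were also higher. Ndufa4 was lower, at 20.2 and 17.8 CPM (log2 -1.37, adjusted p = 0.00558), with Ndufa9 (-0.61), Atp5b (-0.57), Ndufa5 (-0.51), Atp5d (-0.51) and Cox5a (-0.48). The groups did not overlap for these genes, as for 68.0% of all genes. Fewer members were called when any single library was left out, and the share of all genes called in those fits is not given.

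The Myh9 hairpins gave few calls with 1 exception. In EV cells, shMyh9#2 had 0 members higher and 2 lower (4.2% and 2.46% of genes, 6.65% either way). Ndufa4 had 13.8 and 22.2 CPM against 52.0 and 47.5 (log2 -1.46, standard error 0.34, edgeR adjusted p = 0.0146), and Ndufb2 had 79.8 and 81.5 against 102 and 122 (-0.47, 0.11, adjusted p = 0.017). At most 1 was called when any library was left out, and none without EV shNC replicate 2 or shMyh9#2 replicate 1. With shMyh9#4 in EV cells, edgeR and DESeq2 called 0 (1.45% and 0.256% of genes, 1.71% either way) and 4 had an unadjusted p under 0.05. In WT-Bmal1 cells, shMyh9#2 had 3 higher and 0 lower (2.35% and 2.41%), namely Cox6a2 (5.52 and 4.46 CPM against 1.90 and 1.07, log2 1.75, adjusted p = 0.0461), Atp5f1 (0.59, adjusted p = 0.0465) and Atp5a1 (0.42, adjusted p = 0.0407). With shMyh9#4, 0 were higher and 2 lower (0.0876% and 0.148%, 0.236% either way), Ndufb7 (-0.55, adjusted p = 0.0406) and Atp5g1 (-0.44, adjusted p = 0.043), and the replicate block called 0. None of these 5 calls remained when any single library was left out. In dHLH-Bmal1 cells, shMyh9#2 gave 0 calls with edgeR and 2 with DESeq2's Wald test (0.296% and 0.263% of genes by edgeR), with 13 at an unadjusted p under 0.05 and 68 of 78 members above 0. The member median was 0.14 against -0.0002 over all genes. The 2 dHLH-Bmal1 shMyh9#2 libraries had 4918817 and 14699820 counts, and the log2 gap between them had an SD of 0.45 among members.

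The exception was shMyh9#4 in dHLH-Bmal1 cells, where 5 members were called higher and 22 lower (6.28% and 8.86% of genes). Cox7c had 7.04 and 3.82 CPM against 33.3 and 29.7 with shNC (log2 -2.59, standard error 0.70, edgeR adjusted p = 0.0198, and -2.22 with its copies added), and Ndufb3 8.74 and 7.99 against 48.9 and 42.8 (-2.45, 0.47, adjusted p = 0.00315). Uqcrfs1 had 13.2 and 14.4 CPM against 47.5 and 39.7 (-1.63, 0.28, adjusted p = 0.00162). The libraries did not overlap for these 3, nor for 58.3% of all genes. Ndufa4 (-1.65), Ndufa1 (-1.55), Sdhc (-1.44), Cox7b (-1.30), Atp5g3 (-1.14) and Ndufa8 (-1.02) were lower too, so that all 5 complexes had a member among the 22. Higher were Ndufa5 (0.53), Cox7a2 (0.49), Ndufa2 (0.49), Ndufa11 (0.47) and Uqcrh, the hinge protein of complex III (0.37). Ndufa2 had 539 and 575 CPM against 386 and 420.

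The libraries with shMyh9#4 in dHLH-Bmal1 cells were among the shallowest, at 3643332 and 6001340 counts. Of the 22 members that fell, 12 had under 40% GC and 3 at least 50%, against 19 and 26 of the 78 tested. Across the 78 members r between the log2 change and GC was 0.50, against 0.09 over all genes, and with the GC correction 4 members were called higher and 22 lower. The share of all genes called with it is not given. That correction removes the trend over all genes, so it does not test a link seen mainly across members. Fewer members were called without either shNC library, and nearly all calls were lost without shMyh9#4 replicate 2. Their number did not change without shMyh9#4 replicate 1. The share of all genes called in those fits is not given. Myh9 itself fell least in these cells (-0.42).

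**Figure D5:**
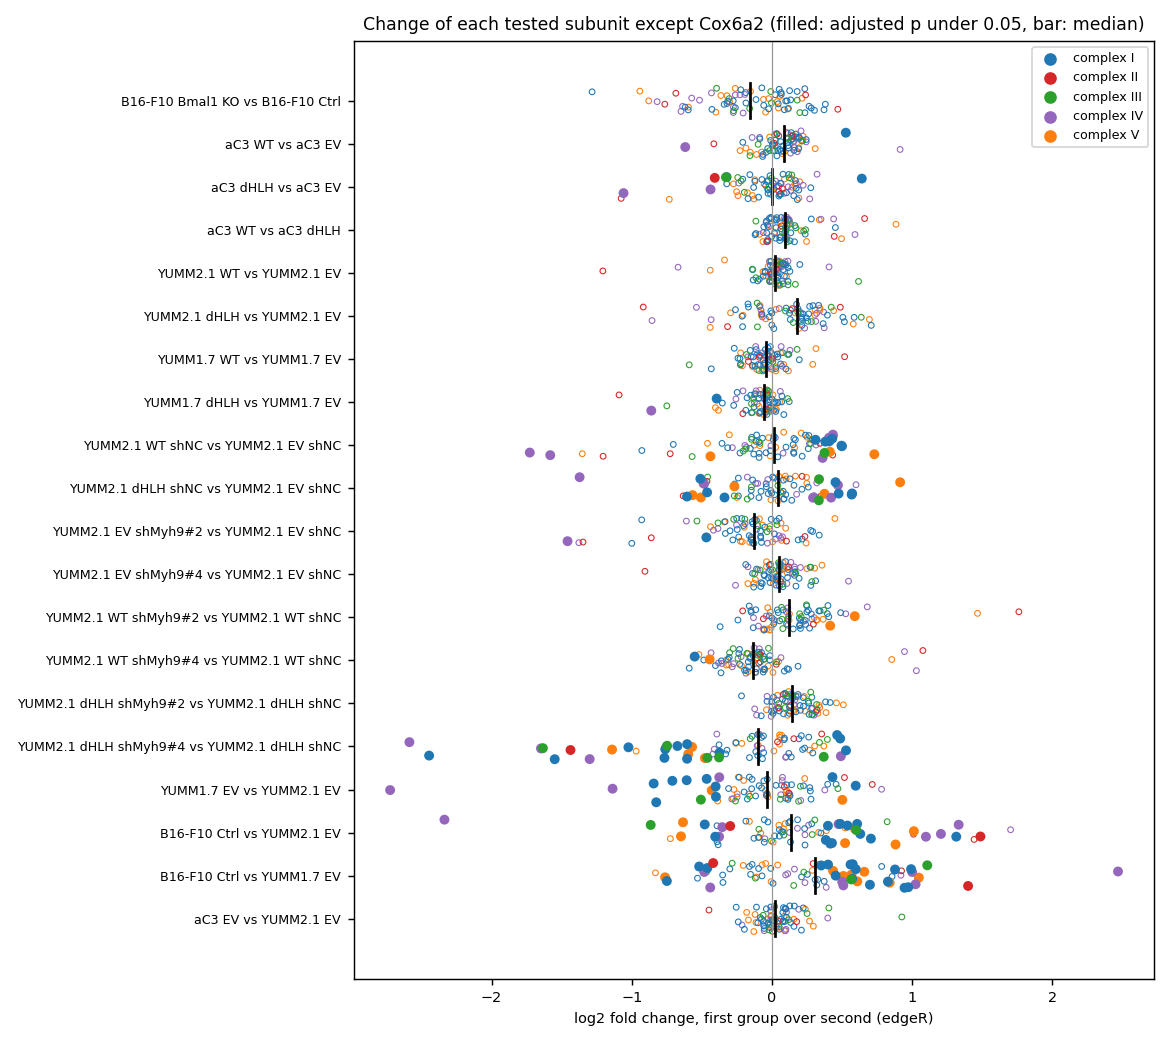
Log2 fold change of each tested member except Cox6a2 (points, coloured by complex) by comparison (rows), filled where the edgeR adjusted p was under 0.05, with a black bar at the member median. Calls on both sides of 0 fill the comparisons of lines, the lower calls of dHLH-Bmal1 shMyh9#4 against shNC reach -2.59 (Cox7c), and B16-F10 Bmal1 KO has none.

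Between the lines with their own Bmal1, B16-F10 Ctrl had 21 members higher and 9 lower than YUMM2.1 EV (22.1% and 26.8% of 16091 genes) and 28 higher and 8 lower than YUMM1.7 EV (24.5% and 25.0%). These groups differ in genotype and vector, and line, clone, culture and library preparation cannot be told apart. The paper gives the same medium for these lines. B16-F10 Ctrl libraries had 19348395 and 19367158 counts, YUMM2.1 EV 11356803 and 9097676, and YUMM1.7 EV 11035156 and 10440447. Sdhb, in complex II, had 382 and 495 CPM in B16-F10 Ctrl against 127 and 182 in YUMM2.1 EV (log2 1.49, standard error 0.26, edgeR adjusted p = 0.000178) and 169 and 166 in YUMM1.7 EV (1.40, adjusted p = 0.000286), while Sdha was lower in B16-F10 (-0.30 and -0.42). In complex IV, Cox5b had 446 and 536 CPM against 225 and 228 (1.10, adjusted p = 8.06e-08) and 253 and 234 (1.03, adjusted p = 1.68e-07). Cox7b was higher by 1.21 and 1.00, and Ndufa4, at 135 and 118 CPM, by 1.33 and 2.47. In complex V, Atp5g3 was higher by 0.88 and 1.05 and Atp5a1 by 1.01 and 0.51, and in complex III Uqcrq by 0.60 and 1.11. Against YUMM2.1 EV, Ndufb3 (1.32, adjusted p = 0.0198) and the rare Cox6a2 (2.51, adjusted p = 0.0391) were higher as well.

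Lower in B16-F10 Ctrl than in YUMM2.1 EV were Cox7a1 (0.333 and 0.145 CPM against 1.58 and 0.862, log2 -2.34, adjusted p = 0.00952), Uqcr11 of complex III (-0.86), Atp5k (-0.65), Atp5d (-0.63) and Ndufa7 (-0.48). Lower than in YUMM1.7 EV were Cox6a2 (-1.75), Atp5k (-0.76), Ndufa7 (-0.75), Ndufs4 (-0.52) and Cox7a2l (-0.48). The first comparison had fewer calls without B16-F10 Ctrl replicate 2 or without YUMM2.1 EV replicate 2, by over 1.5 times in both. The share of all genes called in those fits is not given. The 2 comparisons share the Ctrl libraries. The member median was 0.16 and 0.30, against -0.02 and 0.01 over all genes.

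YUMM1.7 EV against YUMM2.1 EV had 4 members higher and 12 lower, where 32.7% of genes were called in either direction. Cox6a2 had 1.87 and 2.25 CPM in YUMM1.7 and 0 and 2 counts in YUMM2.1, a ratio of 21.4 (exact 95% interval of counting 5.60 to 182, edgeR adjusted p = 0.00163). Ndufs4 (0.60), an accessory subunit on the matrix arm of complex I, Atp5a1 (0.50) and Ndufa8 (0.43) were also higher. Cox7a1 was lower (-2.72, adjusted p = 0.0129), as were Ndufa4 (24.4 and 21.7 CPM against 63.6 and 35.1, -1.14, adjusted p = 0.009) and the complex I genes Ndufa9 (-0.84), Ndufv3 (-0.83) and Ndufa5 (-0.71). Fewer members were called without either YUMM1.7 EV library, and the share of all genes called in those fits is not given. The aC3 clone with EV did not differ from YUMM2.1 EV in any of 78 members by edgeR or DESeq2 (0.423% and 1.53% of genes called), with 1 at an unadjusted p under 0.05.

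Interaction terms tested whether an effect differed between cells. The effect of dHLH-Bmal1 was higher in YUMM2.1 than in aC3 for Atp5a1 (difference of log2 changes 0.56, standard error 0.17, edgeR adjusted p = 0.0426) and for no other of 78 members, with 4.41% of genes called higher and 6.97% lower. It was higher in YUMM2.1 than in YUMM1.7 for Cox6a2 (5.41, standard error 1.11, adjusted p = 0.0067) and Ndufs4 (0.61, 0.18, adjusted p = 0.0427), with 4.44% and 4.25% of genes. Both comparisons share the YUMM2.1 libraries. The call of Ndufs4 was lost with the GC correction (0.63, adjusted p = 0.0588), without the filter on low counts (0.62, adjusted p = 0.0893) and when any 1 of the 8 libraries was left out (0.57 to 0.66). The call of Atp5a1 was lost when any 1 of the 8 libraries was left out, with differences of 0.50 to 0.63. For shMyh9#2, the effect in dHLH-Bmal1 against EV cells differed for 0 members with edgeR and 4 with DESeq2's Wald test (22 at an unadjusted p under 0.05, 1.1% and 2.2% of genes called by edgeR). In WT-Bmal1 against EV cells it was higher for Ndufa4 (1.74, standard error 0.48, adjusted p = 0.0446) and Sdhd (3.11, 0.88, adjusted p = 0.0488), where 1.75% and 3.43% of genes were called, and neither call remained with any library left out. With the GC correction both calls were lost (edgeR adjusted p = 0.0509 and 0.0554), and Ndufa12 (0.44) and Uqcrc1 (0.67) were called higher. DESeq2's Wald test did not call Ndufa4 (adjusted p = 0.0654). Sdhd had 0.922 and 0.999 CPM in EV shMyh9#2 against 2.71 and 2.24 in EV shNC cells. It had 3.50 and 3.81 CPM in WT-Bmal1 shMyh9#2 against 0.680 and 1.43 in WT-Bmal1 shNC cells. For shMyh9#4, a comparison added after the data were seen, the effect was lower in dHLH-Bmal1 than in EV cells for 17 members and higher for 0 (5.46% and 3.05% of genes), led by Cox7c (-3.13), Ndufb3 (-2.72) and Uqcrfs1 (-1.92). No library was left out for this comparison, and the GC correction was its only alternative.

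Other genes of the pathway were taken from 4 lists. In B16-F10 Ctrl against YUMM2.1 EV, 17 of 44 assembly factors were higher and 3 lower (22.1% and 26.8% of all genes), led by the copper factors Cox17 (1.89), Cox11 (1.67) and Sco1 (1.20), and 6 of 13 regulators were higher. Ppargc1a, the gene of PGC-1α, had 176 and 166 CPM in B16-F10 Ctrl, 83.2 and 84.3 in Bmal1 KO and 0.535 to 6.74 CPM in the 36 other libraries. Its log2 difference was 5.62 from YUMM2.1 EV (standard error 0.21, edgeR adjusted p = 1.48e-12) and 6.97 from YUMM1.7 EV (0.23, adjusted p = 4.25e-13), and Ppargc1b was higher by 1.66 and 2.32. The other carriers and subunits, 5 genes, had Cyc1 (cytochrome c1) higher by 0.95 and 1.06 and Cycs (cytochrome c) by 0.48 and 1.33. Of 13 tricarboxylic acid cycle enzymes, 6 were higher and 3 lower than in YUMM2.1 EV, with Suclg2 among the higher.

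In WT-Bmal1 shNC against EV shNC cells, 6 of the 13 cycle enzymes were lower and 1 higher (10.6% and 11.7% of all genes), among them Suclg2 (-0.85), Cs, citrate synthase (-0.70), and Suclg1 (-0.58), and Ppargc1b (-1.21) and Pprc1 (-0.90) were lower too. With shMyh9#4 in dHLH-Bmal1 cells, 8 of 44 assembly factors were lower and 1 higher (8.86% and 6.28% of all genes), led by Sdhaf4 (-1.84), Timmdc1 (-1.56) and Nubpl (-1.45). Esrra, the gene of ERRα, was lower there (2.25 and 1.04 CPM against 8.54 and 4.54, or 8 and 6 counts against 123 and 28, log2 -2.11, edgeR adjusted p = 0.0098), and 4 of the cycle enzymes were lower and 2 higher. In aC3, Ndufaf4 was lower with WT-Bmal1 (-0.65) and dHLH-Bmal1 (-0.56), and 4 of 44 assembly factors were lower and 0 higher in each, where 6.28% and 6.09% of all genes were lower. In the B16-F10 Bmal1 KO comparison, 0 genes of the 4 lists were called by edgeR, with list medians from -0.26 to -0.09.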

How the data were processed

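RNA of 40 libraries was sequenced with the QuantSeq 3′ kit. The authors aligned reads to mm10 with bowtie2 and deposited 1 table of counts per gene, made with RSEM on Ensembl transcripts. The counts are whole numbers and were not normalized. The Ensembl release and the strand setting are not given in the sources used here. The members, lists and tests were chosen with earlier results of these data known.

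Groups came from the labels. The deposited counts were analysed in R 4.3.3 with edgeR 4.0.16, with filterByExpr, TMM scaling and the quasi-likelihood F test in 6 fits. The p-values were adjusted by Benjamini-Hochberg over all genes tested, and members with an adjusted p under 0.05 are called. DESeq2 1.42.0 was an alternative. Other alternatives were DESeq2 size factors, no filter on low counts, a replicate block, an exchange of 2 YUMM2.1 labels, copies added, a correction for 3′ GC in 20 bins, and leaving out each library. The copies, the GC correction and the shMyh9#4 interaction were chosen after seeing the data. Where no share of all genes stands beside a number of calls from an alternative, that number shows only how far the count of members moved. The first comparison of each fit was tested on simulated counts. These held no replicate differences shared between genes and no link to GC, so they do not bear on such differences in the real libraries.

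Copies are GENCODE M21 pseudogenes with at least 95% identity over at least 75 bases of the last 250 bases of a member. Positions, gene overlaps and GC used the same annotation (GRCm38). For each comparison the text names at most the 5 called members with the largest changes each way, among those without overlap between groups and with at least 10 counts on average, at most 3 genes each way of a list, the 10 widest and 5 narrowest ranges, the isoform sets, Arntl and Myh9. Others were named after their values were seen. Same-numbered libraries deviated together in YUMM2.1 (mean correlation 0.24) and not in B16-F10 (0.087), aC3 (0.0265), YUMM1.7 (0.0054) or the hairpin cells (-0.0042), so that the replicate block is read beside the results of YUMM2.1 without hairpins. The 13 protein genes of mitochondrial DNA were not analysed here. A few named items, with the results that need them, are not reported here.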

Additional observations from a re-analysis of the deposited data

Results flagged for a closer look

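The values here were picked out since an effect differed between cells by an interaction term with an edgeR adjusted p under 0.05. The effect of dHLH-Bmal1 was higher in YUMM2.1 than in aC3 for Atp5a1 (0.56, difference of log2 changes) and higher in YUMM2.1 than in YUMM1.7 for Cox6a2 (5.41) and Ndufs4 (0.61). The effect of shMyh9#2 was higher in WT-Bmal1 than in EV cells for Ndufa4 (1.74) and Sdhd (3.11). The calls of Ndufs4, Ndufa4 and Sdhd were lost with the GC correction (edgeR adjusted p = 0.0588, 0.0509 and 0.0554). Those of Atp5a1, Ndufs4, Ndufa4 and Sdhd were lost when any 1 library was left out.

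The effect of shMyh9#4 was lower in dHLH-Bmal1 than in EV cells for 17 members, with edgeR adjusted p-values of 0.00437 to 0.0387, in a comparison added after the data were seen. In complex I these were Ndufa1 (-1.54), Ndufa6 (-0.77), Ndufa7 (-0.57), Ndufa8 (-1.08), Ndufb3 (-2.72), Ndufb4 (-0.93), Ndufs3 (-0.86) and Ndufs5 (-0.95), and in complex II Sdhc (-1.56). In complex III they were Uqcrb (-0.92), Uqcrfs1 (-1.92) and Uqcrq (-0.65), in complex IV Cox6b1 (-0.78), Cox7b (-1.44) and Cox7c (-3.13), and in complex V Atp5g3 (-1.10) and Atp5j (-0.78). The 2 dHLH-Bmal1 shMyh9#4 libraries had the lowest ratios of low-GC to high-GC members of all 40. Across the 78 members tested, r between the difference and GC was 0.45, against 0.035 over all genes. With the GC correction the same 17 members remained called, from -3.15 (Cox7c) to -0.63 (Ndufa7). That correction removes the trend over all genes, so it does not test a link seen mainly across members. It was the only alternative run for this comparison, and no library was left out.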

How the results depend on the processing

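Of the member changes called in the results above, none changed sign under an alternative run. Of those not called, Atp5k, Ndufb7, Ndufs8, Uqcr11 and Uqcrc1 in B16-F10 Bmal1 KO did without KO replicate 2, as did the member median of WT-Bmal1 shNC with the GC correction. With 2 libraries a group, leaving out 1 moved many numbers of members called, and the cause was not tested. Beyond those given in the results above, shares of all genes called in such runs are not given. The numbers thus show only how far the count of members moved. The lowest and highest numbers were 0 and 45 in B16-F10 Bmal1 KO, 1 and 2 for WT-Bmal1 in aC3, 2 and 19 for dHLH-Bmal1 in aC3, 0 and 12 between those, 0 and 0 for WT-Bmal1 in YUMM2.1, 0 and 1 for dHLH-Bmal1 in YUMM2.1, 0 and 4 for WT-Bmal1 in YUMM1.7, and 1 and 1 for dHLH-Bmal1 in YUMM1.7. They were 2 and 13 for WT-Bmal1 shNC and 8 and 12 for dHLH-Bmal1 shNC against EV shNC, 0 and 1 for shMyh9#2 in EV cells, 0 and 0 for shMyh9#4 in EV cells, for both hairpins in WT-Bmal1 cells and for shMyh9#2 in dHLH-Bmal1 cells, and 1 and 27 for shMyh9#4 in dHLH-Bmal1 cells. Between lines they were 7 and 12 (YUMM1.7 against YUMM2.1), 18 and 30 (B16-F10 against YUMM2.1), 26 and 33 (B16-F10 against YUMM1.7) and 0 and 0 (aC3 against YUMM2.1). For the interactions they were 0 and 2 (dHLH-Bmal1, YUMM2.1 minus aC3), 1 and 2 (minus YUMM1.7), 0 and 6 (shMyh9#2, dHLH-Bmal1 minus EV) and 0 and 0 (WT-Bmal1 minus EV).

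Without the filter on low counts the numbers called became 1 in B16-F10 Bmal1 KO, 4 for WT-Bmal1 against dHLH-Bmal1 in aC3, 11 for dHLH-Bmal1 in YUMM2.1, 4 for WT-Bmal1 and 6 for dHLH-Bmal1 in YUMM1.7, 12 for shMyh9#2 in EV cells, 5 and 6 for shMyh9#2 and #4 in WT-Bmal1 cells, 1 for shMyh9#2 in dHLH-Bmal1 cells, 1 for aC3 EV against YUMM2.1 EV, and 6, 5, 13 and 13 for the interactions in the order above. DESeq2's Wald test gave 1 in B16-F10 Bmal1 KO, 1 for WT-Bmal1 in aC3, 5 for dHLH-Bmal1 in YUMM2.1, 5 for shMyh9#2 in EV cells, 2 for it in dHLH-Bmal1 cells, and 4 and 5 for the shMyh9#2 interactions. With a replicate block the numbers were 23 for dHLH-Bmal1 in YUMM2.1, where same-numbered libraries deviated together although the labels name no pairs. Elsewhere they were 4, 11 and 3 for WT-Bmal1, dHLH-Bmal1 and their difference in aC3, 0 for shMyh9#4 in WT-Bmal1 cells, 2 for the interaction of YUMM2.1 minus aC3 and 1 for shMyh9#2 in WT-Bmal1 minus EV cells. The exchanged labels gave 23 for dHLH-Bmal1 in YUMM2.1 and 4 and 5 for its interactions. The GC correction gave 1 for WT-Bmal1 against dHLH-Bmal1 in aC3, 2 for dHLH-Bmal1 in YUMM2.1 (21 with the block), 2 for its interaction minus aC3 and 1 for shMyh9#2 in dHLH-Bmal1 minus EV cells. Adding copies gave 1 for WT-Bmal1 and 1 for WT-Bmal1 against dHLH-Bmal1 in aC3. DESeq2 size factors moved none of these numbers by over 1.5 times. Shares of all genes are not given beside the numbers of this paragraph, which show only how far the count of members moved.

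Depth limits the rare members most, since Cox6a2, Cox7a1, Sdhd and Atp5s had 789, 483, 2310 and 1185 counts in 40 libraries. Levels of Atp5g2 and Cox7c depend on how reads were divided among copies.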
